A study of Mus musculus with 12 samples.

Results

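The mouse breast cancer line 4TO7 was compared with the line 67NR over 183 microRNAs (miRNAs), out of 224 that could be tested in the series and 567 mouse miRNAs on the array. A miRNA entered the comparison if it was well above the array's background on all 3 arrays of 67NR or on all 3 arrays of 4TO7. Both lines are wild type and come from spontaneous breast cancer of female BALB/c mice, and the labels call both non-metastatic. The series holds 2 more such lines, 168FARN (labelled non-metastatic) and 4T1 (labelled metastatic), also with 3 arrays each. No line received a treatment or carries an engineered allele according to the labels, and each group is a single cultured line. Total RNA taken with Trizol was labelled from 100 ng per array and hybridised to one-colour Agilent mouse miRNA arrays, on which the brightness of short probes is read as the amount of the matching miRNA. Nothing in the labels tells whether repeats were grown apart. The p-values therefore describe the spread of these samples only, and that spread may be technical.

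A miRNA is a small RNA that guides an Argonaute protein to messenger RNAs, mostly through bases 2 to 8 of its 5′ end, the seed, and thereby lowers their translation and stability. It is cut from a hairpin whose 2 strands can both be kept, and the strand that is usually less abundant carries a star in the names used here. miRNAs with the same seed form families, and neighbours in the genome are often cut from 1 primary transcript. The let-7 family is known for restraining Ras and Hmga2 in differentiated cells, while the miR-17-92 cluster is driven by Myc and promotes proliferation. In this tumour series the lines are known to share an origin and to differ in how far their cells spread from a primary tumour.

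The mature sequences below are those of the families on which the comparison turned. They are RefSeq's (GRCm38.p6), written 5′ to 3′ with the seed in capitals. A sequence could be matched for 125 of the 183 members, and 18 seeds were shared by at least 2 members. The seed shared by most members was that of let-7, with 9, of which 8 were read in both lines and all 8 were higher in 4TO7:
let-7a: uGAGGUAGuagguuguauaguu
let-7b: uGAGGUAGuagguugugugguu
let-7c: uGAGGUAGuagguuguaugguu
let-7d: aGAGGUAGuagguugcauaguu
let-7e: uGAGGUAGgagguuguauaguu
let-7f: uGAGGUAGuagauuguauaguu
let-7g: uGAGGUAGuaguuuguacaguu
let-7i: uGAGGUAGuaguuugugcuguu
miR-98: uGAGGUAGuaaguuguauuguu

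Counted from 1 at the 5′ end of let-7a, let-7b differs from it by A17G and A19G, let-7c by A19G, let-7d by U1A and U16C, let-7e by U9G and let-7f by G12A. The mature sequences of this family differ from each other by 1 to 6 bases, and binding of 1 member to the probe of another was not tested. The next set holds the 6 members with the seed of miR-17, all lower in 4TO7, and with them miR-19a, miR-19b and miR-92a of the same cluster:
miR-17: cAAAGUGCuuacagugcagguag
miR-20a: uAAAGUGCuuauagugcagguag
miR-20b: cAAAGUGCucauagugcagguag
miR-106a: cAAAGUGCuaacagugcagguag
miR-106b: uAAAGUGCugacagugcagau
miR-93: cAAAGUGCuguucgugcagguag
miR-19a: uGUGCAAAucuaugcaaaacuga
miR-19b: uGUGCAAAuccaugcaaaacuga
miR-92a: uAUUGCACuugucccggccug

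In a further set, miRNAs that share a seed went in opposite directions with the processing used here. The direction of miR-29c turned with scaling on all probes and without scaling. Those of miR-152 and miR-20a* turned with another background correction. The set also holds the strands of miR-17 and miR-20a that did not go with their partners:
miR-27a: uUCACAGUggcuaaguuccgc
miR-27b: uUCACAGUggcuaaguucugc
miR-29a: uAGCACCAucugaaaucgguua
miR-29b: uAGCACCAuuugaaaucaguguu
miR-29c: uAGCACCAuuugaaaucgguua
miR-148a: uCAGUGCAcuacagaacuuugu
miR-152: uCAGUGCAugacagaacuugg
miR-17*: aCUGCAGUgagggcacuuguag
miR-20a*: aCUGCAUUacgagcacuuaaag

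Further members with large differences were these, the first 4 higher and the last 4 lower in 4TO7:
miR-125b-5p: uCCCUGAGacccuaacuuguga
miR-31: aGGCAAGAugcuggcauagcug
miR-31*: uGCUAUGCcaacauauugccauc
miR-21: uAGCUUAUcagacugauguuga
miR-10a: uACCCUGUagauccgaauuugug
miR-10b: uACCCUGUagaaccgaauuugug
miR-196a: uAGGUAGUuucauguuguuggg
miR-196b: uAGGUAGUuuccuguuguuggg

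Before any difference was drawn, the arrays were compared. The 75th percentile of signal used for scaling was 358 to 460 on the 67NR arrays and 600 to 671 on the 4TO7 arrays, and 141 to 160 miRNAs were read on a 67NR array and 146 to 158 on a 4TO7 array. Arrays of 1 line correlated at 0.993 to 0.999, and arrays of 67NR with those of 4TO7 at 0.611 to 0.620, across miRNAs, which are not independent replicates. The arrays labelled 67NR stood apart from the other 9 in a control target named hur_5, whose mean signal was at least 180 on each of them and at most 6.36 on the others. The part of that difference in the results was not tested. All 67NR arrays were on 1 slide and all 4TO7 arrays on another, and only 168FARN was run on both. Its replicate 1 was on the slide of 67NR and its replicates 2 and 3 on that of 4TO7. A slide effect can therefore not be told apart from what was particular to that 1 array. Between its slides the 168FARN levels of members read in both lines differed by a median of 0.0463 (log2) and by at most 1.51, for miR-697.

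Levels are given as log2 of the signal over each array's scaling percentile. Levels of different miRNAs come from different probes, so only the levels of the same miRNA in different arrays are compared. Values below -5.58 were raised to that floor, where they cannot be ranked. Differences are 4TO7 minus 67NR in log2 ± their SE (standard error; n = 3 arrays in each line), and are called at a limma p-value below 0.05 after Benjamini-Hochberg adjustment over the 224 tested miRNAs. Of these 224, 79.9% were called, 31.7% higher and 48.2% lower in 4TO7. The arrays of the lines did not overlap for 80.4%, with those of 4TO7 above for 32.6% and below for 47.8%. A call was therefore the common outcome for any miRNA tested, and sizes are given with every count.

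Of the 183 members, 104 were read on every array of both lines, 38 on every 4TO7 array and no 67NR array, 31 on every 67NR array and no 4TO7 array, and 10 on every array of 1 line and some of the other. Members read in only 1 line had to differ by the way they were chosen, so their calls are not counted as results, and their folds are lower bounds. Among the 104 read in both lines, 28 were called higher in 4TO7, 65 lower and 11 were not called. Their median difference was -0.75, beside -0.12 over all 224 tested. At least 2-fold differences were found for 21 of the 104 upward and 48 downward, where 24.1% and 36.6% of all tested (60.7% in either direction) passed the same limit. Differences of 8-fold or more were found for 11 upward and 7 downward, beside 15.6% of all tested in either direction. The 4TO7 arrays lay wholly above the 67NR arrays for 30 of the 104 and wholly below for 65, and overlapped them for 9. As the RNA of whole cultures was measured, fewer cells with a miRNA and less of it in each cell cannot be told apart. The share of upward calls among these members was 30.1%, and it was 40.2% when arrays were scaled on all probes or by quantiles and 44.2% without scaling.

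**Figure D1:**
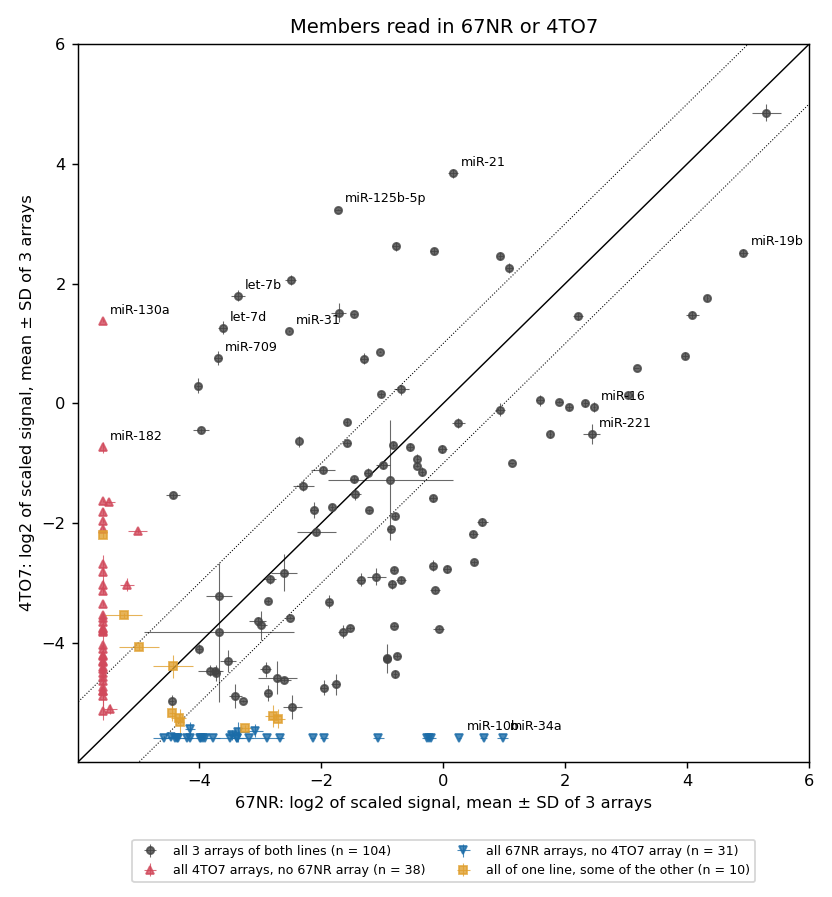
Mean log2 level of each of the 183 members on the 67NR arrays (x axis) and the 4TO7 arrays (y axis), with the standard deviation (SD) over 3 arrays as bars, the line of equality drawn solid and 2-fold differences dotted. The 104 members read in both lines lie on both sides of the line, with let-7b and miR-125b-5p far above it and the miR-17-92 member miR-19b below, and the members read in 1 line lie along or near the floor of the other.

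The let-7 family rose as a whole in 4TO7. All 8 members read in both lines were called higher, with differences from 0.92 to 5.16 and a median of 3.18, and the 9th, miR-98, was read in 4TO7 alone. let-7b, which lies at chr15:85537758-85537776 (mm9, as are all positions below), read -3.49, -3.26 and -3.34 on the 67NR arrays and 1.83, 1.69 and 1.86 on the 4TO7 arrays. Each miRNA is given a single position here and below, and any copies of its mature sequence elsewhere cannot be told apart. All 4TO7 arrays were far above all 67NR arrays, and the difference was 5.16 ± 0.078 (adjusted p = 6.3e-14), or 35.8-fold. let-7c, its neighbour in the same 10 kb at chr15:85537049-85537067, read -2.59, -2.41 and -2.50 on the 67NR arrays and 2.07, 1.98 and 2.14 on the 4TO7 arrays and differed by 4.57 ± 0.067. let-7d at chr13:48631447-48631465 read -3.63, -3.53 and -3.69 on the 67NR arrays and 1.29, 1.15 and 1.36 on the 4TO7 arrays, a difference of 4.88 ± 0.073 (adjusted p = 5.7e-14). The groups were again wide apart for both, and the difference of let-7c was 23.7-fold and that of let-7d 29.4-fold.

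Within the family the size differed between miRNAs from 1 cluster. let-7a and let-7f, which the files place beside let-7d on chromosome 13, were higher by 1.18 ± 0.058 and 1.53 ± 0.054. Their levels in 67NR were already well above background, 1.07, 1.14 and 1.04 for let-7a and 0.91, 0.98 and 0.92 for let-7f, while those in 4TO7 were 2.29, 2.18 and 2.34 and 2.47, 2.39 and 2.53. Both are encoded at more than 1 place in the mouse genome, and the arrays cannot tell those copies apart. let-7i, a family member with a locus of its own at chr10:122422754-122422774, read -4.06, -4.0 and -3.97 on the 67NR arrays and 0.32, 0.16 and 0.41 on the 4TO7 arrays and rose by 4.30 ± 0.063. let-7g read -1.35, -1.23 and -1.33 on the 67NR arrays and 0.77, 0.64 and 0.82 on the 4TO7 arrays and rose by 2.05 ± 0.065. let-7e read -0.79, -0.55 and -0.72 on the 67NR arrays and 0.30, 0.13 and 0.27 on the 4TO7 arrays, the smallest difference of the family at 0.92 ± 0.078. miR-98 on the X chromosome (chrX:148347772-148347793) was not read on any 67NR array, where its levels were -5.17, -4.99 and -4.87, and was -2.09, -2.15 and -2.14 on the 4TO7 arrays, at least 6.35-fold higher.

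The let-7 hairpins share transcripts with miR-99, miR-100 and miR-125 in mammals, and these partners were followed next. All 5 of the main strands read in both lines were higher in 4TO7, with a median of 0.92. miR-125b-5p, a regulator of p53 and of differentiation known from many tissues, read -1.79, -1.69 and -1.69 on the 67NR arrays and 3.23, 3.25 and 3.22 on the 4TO7 arrays. That was 31.1-fold, a difference of 4.96 ± 0.042 (adjusted p = 7.1e-16), and the widest gap between the groups after let-7b among the members read in both lines. miR-100, of the family that targets mTOR, read -4.50, -4.49 and -4.30 on the 67NR arrays and -1.54, -1.57 and -1.49 on the 4TO7 arrays, a difference of 2.89 ± 0.060. The other partners moved less. miR-99a, at chr16:77599188-77599206, read -2.12, -2.05 and -2.18 on the 67NR arrays and -1.76, -1.93 and -1.66 on the 4TO7 arrays and differed by 0.33 ± 0.068 (adjusted p = 0.00085), the groups still not overlapping.

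The cluster of miR-99b, let-7e and miR-125a on chromosome 17 (17967164 to 17967840) moved by nearly the same amount in all 3 main strands, by 0.86 ± 0.087 for miR-99b, 0.92 ± 0.078 for let-7e and 0.92 ± 0.067 for miR-125a-5p. The other strand of the last hairpin, miR-125a-3p, went down: its levels were -4.20, -4.37 and -4.44 on the 67NR arrays and -5.27, -5.32 and -5.17 on the 4TO7 arrays, a difference of -0.92 ± 0.080, with only some 4TO7 arrays above background.

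**Figure D2:**
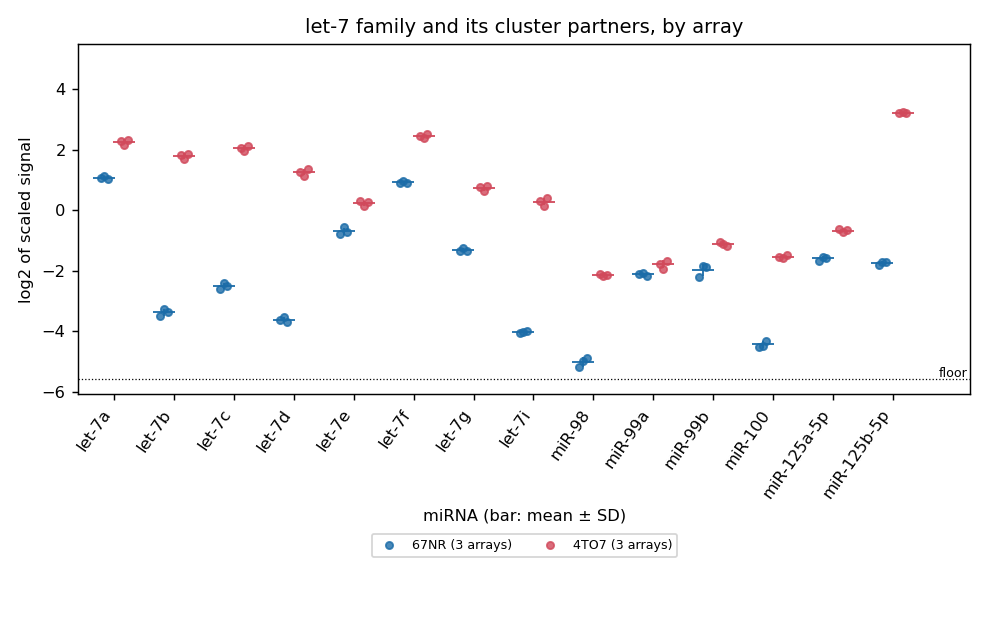
Log2 level of the let-7 family and of its cluster partners on each of the 3 arrays of 67NR (blue) and 4TO7 (red), with the mean ± SD as a bar and the floor as a dotted line. Every 4TO7 array lies above every 67NR array for all 14 miRNAs, with the widest gaps for let-7b at 5.16, miR-125b-5p at 4.96 and let-7d at 4.88 and the narrowest for miR-99a at 0.33.

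The miR-17-92 cluster and its copies moved the other way. This list had 12 members read in both lines, and all 12 were lower in 4TO7, with differences of -3.16 to -1.53 and a median of -2.59. In the cluster itself, on chromosome 14 from 115442915 to 115443718, miR-19a read 3.95, 4.02 and 3.91 on the 67NR arrays and 0.79, 0.74 and 0.87 on the 4TO7 arrays. The difference was -3.16 ± 0.056 (adjusted p = 2.2e-13), 8.94-fold, with all 4TO7 arrays below all 67NR arrays. miR-19b read 4.87, 5.0 and 4.88 on the 67NR arrays and 2.55, 2.45 and 2.56 on the 4TO7 arrays and fell by 2.40 ± 0.049. miR-20a read 4.32, 4.34 and 4.33 on the 67NR arrays and 1.76, 1.71 and 1.81 on the 4TO7 arrays, and miR-92a, the last miRNA of the cluster, 3.97, 4.17 and 4.12 on the 67NR arrays and 1.51, 1.41 and 1.52 on the 4TO7 arrays. Their differences were -2.57 ± 0.045 and -2.60 ± 0.076. miR-17 and miR-18a, the first hairpins of the transcript, were lower, with differences of -2.63 ± 0.061 and -2.90 ± 0.051.

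Both copies of the cluster followed. On the X chromosome, miR-106a and miR-20b (50095336 to 50095731) were lower, with differences of -2.67 ± 0.052 and -2.58 ± 0.029, but miR-106a differs little in sequence from miR-17 and miR-20b from miR-20a, and how far a probe tells them apart was not tested. In the copy on chromosome 5 (138606560 to 138607031), which lies in an intron of the replication gene Mcm7, the differences were smaller: -2.12 ± 0.045 for miR-106b, -1.88 ± 0.035 for miR-93 and -1.53 ± 0.063 for miR-25. miR-25 shares its seed with miR-92a, and its levels were 1.51, 1.64 and 1.60 on the 67NR arrays and 0.082, -0.051 and 0.13 on the 4TO7 arrays. No array of 4TO7 reached the lowest 67NR array for any of the 12.

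The star strands of the same hairpins did not all fall with their partners. miR-18a* fell as far as miR-18a, from -1.84, -1.74 and -1.70 to -4.89, -4.58 and -4.60 (-2.93 ± 0.089). The brightest probe of miR-17* was at the floor of -5.58 on all 3 67NR arrays and -2.24, -2.19 and -2.15 on the 4TO7 arrays, so that no exact difference is given, and a second, dimmer probe was read on all 4TO7 arrays and 1 67NR array and differed by 1.74. miR-20a* was read in 4TO7 alone, at -4.72, -4.50 and -4.66, a bound of 1.14-fold, and with the normexp background correction its difference turned to -0.043, so its direction depends on how background is taken off. miR-106b* was not called: it read -4.80, -4.35 and -4.15 on the 67NR arrays and -4.56, -4.18 and -4.42 on the 4TO7 arrays, and the arrays overlapped (0.046 ± 0.15, adjusted p = 0.88).

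**Figure D3:**
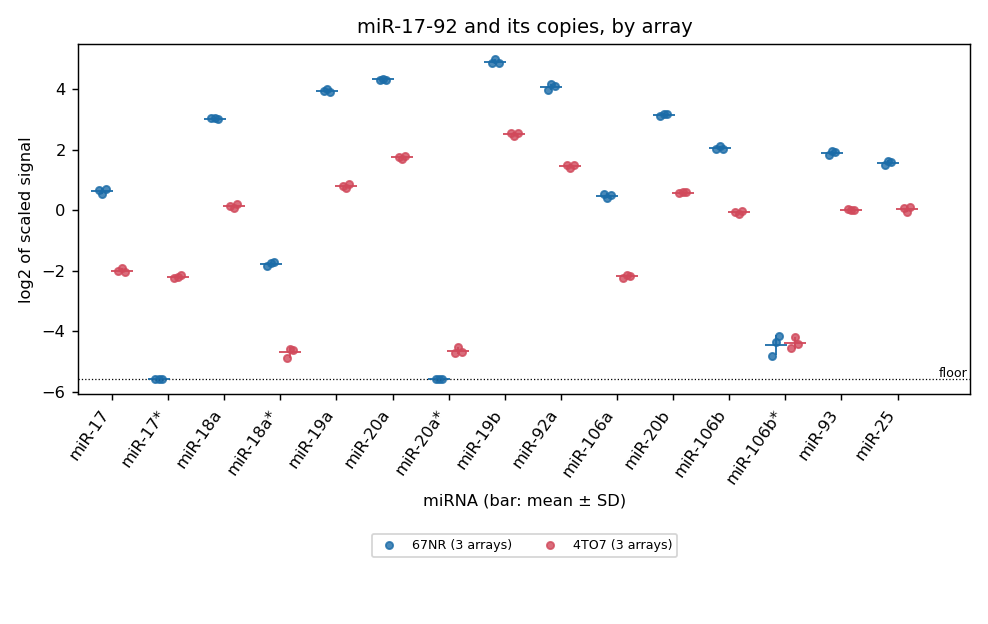
Log2 level of the miRNAs of miR-17-92 and its copies on each of the 3 arrays of 67NR (blue) and 4TO7 (red), with the mean ± SD as a bar and the floor as a dotted line. The 12 miRNAs read in both lines lie lower in 4TO7, with differences of -3.16 to -1.53, while miR-17* and miR-20a* lie above the 67NR floor in 4TO7 and miR-106b* overlaps.

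Of 5 members of the miR-15/16 family read in both lines, 3 were lower in 4TO7 and 2 were not called. In this family, which represses Bcl2 and cyclins, miR-16 read 2.46, 2.49 and 2.46 on the 67NR arrays and -0.0091, -0.15 and -0.016 on the 4TO7 arrays and miR-15a 1.09, 1.17 and 1.11 on the 67NR arrays and -0.99, -1.0 and -1.01 on the 4TO7 arrays. The files list them as neighbours on chromosome 14 (62250773 to 62250933), and their differences were -2.53 ± 0.046 and -2.12 ± 0.035. miR-15b on chromosome 3 fell by 0.76 ± 0.056, and its star strand was not called (-0.094 ± 0.055, adjusted p = 0.14). miR-195 and miR-497, a pair on chromosome 11 with the same seed, were read on all 67NR arrays, at -2.70, -2.60 and -2.84 and -3.20, -2.94 and -3.10, while miR-497 was read on no 4TO7 array and was at least 4.84-fold lower. miR-322, of the same seed but on the X chromosome, read -1.82, -1.79 and -1.86 on the 67NR arrays and -1.74, -1.78 and -1.67 on the 4TO7 arrays and was not called (0.094 ± 0.048, adjusted p = 0.097), although it was called at 0.52 with scaling on all probes and at 0.81 with the mean of its probes. Its second probe, read on all 6 arrays, was higher in 4TO7 by 1.52. Its neighbour miR-503 was read in 4TO7 alone, at least 1.54-fold higher. The median of the 5 family members read in both lines was -0.76, near that of all members read in both lines.

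miR-103 and miR-107, which lie in introns of the pantothenate kinase genes and differ little in sequence, were lower, with differences of -2.32 ± 0.048 and -2.26 ± 0.049. miR-221 and miR-222, repressors of the cell cycle inhibitor Cdkn1b, are neighbours on the X chromosome (18723433 to 18724042). miR-221 read 2.28, 2.53 and 2.50 on the 67NR arrays and -0.46, -0.38 and -0.70 on the 4TO7 arrays, and miR-222 read 0.019, 0.018 and 0.14 on the 67NR arrays and -2.78, -2.69 and -2.82 on the 4TO7 arrays. Both were lower without overlap, with differences of -2.95 ± 0.088 (adjusted p = 2.3e-11) and -2.82 ± 0.056. All 6 members of the miR-30 family read in both lines were lower too, with differences of -1.70 to -0.51. miR-30a, for which the difference was the smallest of the family at -0.51 ± 0.049, turned to 0.075 without scaling.

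miR-374, an X-linked miRNA at chrX:100768451-100768468, had the largest fall of those read in both lines: it read -0.78, -0.83 and -0.77 on the 67NR arrays and -4.55, -4.56 and -4.44 on the 4TO7 arrays, a difference of -3.72 ± 0.073, 13.2-fold. Its neighbour miR-421, less than 10 kb away, was read in 67NR alone, at -3.13, -3.16 and -3.27, and was at least 4.64-fold lower. miR-128, which is abundant in brain, read -0.80, -0.68 and -0.77 on the 67NR arrays and -4.17, -4.25 and -4.23 on the 4TO7 arrays and miR-101a, a repressor of Ezh2, -0.91, -0.90 and -0.96 on the 67NR arrays and -4.24, -4.34 and -4.23 on the 4TO7 arrays. These were differences of -3.46 ± 0.055 and -3.35 ± 0.049. miR-320 fell by 3.33 ± 0.21, but its 168FARN level differed between slides by -0.61, and with a slide term the difference was -3.94. miR-331-3p differed by -2.98 ± 0.045, miR-361 by -2.26 ± 0.052 and miR-423-5p by -2.22 ± 0.042. miR-126-3p, the miRNA of endothelial cells, read -2.01, -1.90 and -1.96 on the 67NR arrays and -4.67, -4.89 and -4.67 on the 4TO7 arrays and fell by 2.78 ± 0.057.

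In the family of miR-148 and miR-152, whose members repress Dnmt1, miR-148a read 0.54, 0.53 and 0.44 on the 67NR arrays and -2.70, -2.65 and -2.61 on the 4TO7 arrays and miR-148b -0.86, -0.75 and -0.79 on the 67NR arrays and -3.74, -3.71 and -3.69 on the 4TO7 arrays. They were lower, with differences of -3.16 ± 0.033 and -2.91 ± 0.043. miR-152, of the same seed, was at the floor on all 67NR arrays and -4.56, -4.62 and -4.52 on the 4TO7 arrays, with a bound of 1.19-fold, and its difference was -0.068 with the normexp correction.

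Further members with large rises included miR-21, miR-31 and miR-709. miR-21, abundant in many carcinomas and a repressor of Pdcd4, read 0.15, 0.26 and 0.087 on the 67NR arrays and 3.85, 3.77 and 3.91 on the 4TO7 arrays. All 4TO7 arrays were above all 67NR arrays by a wide margin, 3.68 ± 0.061 (adjusted p = 1.4e-13) or 12.8-fold. miR-31, a miRNA of epithelia that was described as a suppressor of breast cancer metastasis, read -2.52, -2.53 and -2.53 on the 67NR arrays and 1.19, 1.2 and 1.22 on the 4TO7 arrays, and its star strand -4.12, -3.91 and -3.88 on the 67NR arrays and -0.47, -0.40 and -0.48 on the 4TO7 arrays. Both strands of this hairpin (chr4:88556518-88556534 for miR-31) rose by a like amount, 3.73 ± 0.033 and 3.52 ± 0.063. miR-709 read -3.71, -3.75 and -3.63 on the 67NR arrays and 0.69, 0.90 and 0.69 on the 4TO7 arrays and rose by 4.45 ± 0.060. miR-22 rose by 1.27 ± 0.038 and miR-193 by 1.73 ± 0.050.

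The miR-29 family, known for repressing collagens, is encoded in 2 clusters. miR-29a, on chromosome 6, read -0.83, -0.72 and -0.78 on the 67NR arrays and 2.65, 2.54 and 2.68 on the 4TO7 arrays and rose by 3.40 ± 0.055 (adjusted p = 1.1e-13). miR-29b, listed on chromosome 1, read -0.23, -0.11 and -0.12 on the 67NR arrays and 2.54, 2.51 and 2.60 on the 4TO7 arrays and rose by 2.70 ± 0.056. miR-29b*, from the cluster of miR-29a at chr6:31013067-31013088, was read in 4TO7 alone, at -3.51, -3.60 and -3.51, and was at least 2.43-fold higher. miR-29c, which differs from miR-29a by U10C (read from miR-29c) and lies 10 kb or less from miR-29b, did not rise. It read -0.61, -0.51 and -0.53 on the 67NR arrays and -0.75, -0.78 and -0.66 on the 4TO7 arrays, a difference of -0.18 ± 0.050 (adjusted p = 0.0062), and this small difference became -0.32 with a slide term, 0.25 when arrays were scaled on all probes and 0.40 without scaling.

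The sister clusters of miR-23, miR-24 and miR-27 went apart. On chromosome 8 (86732465 to 86732759), miR-23a read -1.85, -1.67 and -1.62 on the 67NR arrays and 1.54, 1.66 and 1.34 on the 4TO7 arrays and miR-27a -1.50, -1.42 and -1.48 on the 67NR arrays and 1.46, 1.48 and 1.52 on the 4TO7 arrays. These are rises of 3.23 ± 0.087 and 2.95 ± 0.045 with no overlap. miR-24-2*, the third hairpin there, was read in 4TO7 alone and was at least 1.72-fold higher. On chromosome 13 (63401841 to 63402580), miR-23b read -1.41, -1.38 and -1.27 on the 67NR arrays and -2.97, -2.83 and -3.04 on the 4TO7 arrays and miR-27b -1.28, -1.0 and -1.01 on the 67NR arrays and -2.81, -2.81 and -3.05 on the 4TO7 arrays, differences of -1.59 ± 0.056 and -1.79 ± 0.083. The mature miR-27a differs from miR-27b by 1 base, U19C, and the probes nevertheless gave opposite directions. miR-24 is made in both clusters with the same sequence, and it rose by 1.90 ± 0.034.

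The miR-183 cluster (chromosome 6, 30115962 to 30119729), known from sensory organs and from carcinomas, had 4 members, of which the 2 read in both lines were higher. miR-182 was at the floor of -5.58 on all 3 67NR arrays and -0.72, -0.83 and -0.65 on the 4TO7 arrays, at least 17.1-fold higher. miR-96 read -1.06, -0.96 and -1.03 on the 67NR arrays and 0.17, 0.11 and 0.18 on the 4TO7 arrays and rose by 1.17 ± 0.053, and miR-183 rose by 0.92 ± 0.098. miR-183* read -5.43, -4.88 and -5.40 on the 67NR arrays and -3.58, -3.54 and -3.49 on the 4TO7 arrays, with some 67NR arrays above background. The hairpin at 1 end of the cluster was thus read in 4TO7 alone, while miR-96 and miR-183 were read in both lines.

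Among the 38 members read in 4TO7 alone, 21 had a lower bound of 2-fold or more, and 3 (miR-155, miR-338-5p and miR-706) had none above 1. The largest was that of miR-130a, a miRNA of the seed family of miR-301 that is known from endothelium and blood progenitors. It was at the floor of -5.58 on all 3 67NR arrays and 1.36, 1.36 and 1.41 on the 4TO7 arrays, at least 73.6-fold higher. Its relatives fell with the scaling used here: miR-130b read -0.21, -0.10 and -0.18 on the 67NR arrays and -2.76, -2.75 and -2.60 on the 4TO7 arrays and miR-301a -0.46, -0.39 and -0.44 on the 67NR arrays and -1.06, -1.02 and -1.04 on the 4TO7 arrays, differences of -2.54 ± 0.044 and -0.61 ± 0.045. Before scaling, the mean signal of miR-301a was 313 on the 67NR arrays and 306 on the 4TO7 arrays, so its fall depends on scaling. miR-101b was at the floor in 67NR and -2.67, -2.68 and -2.70 in 4TO7, at least 4.4-fold higher, while miR-101a fell. miR-350 and miR-345-5p were at least 9.13-fold and 9.06-fold higher. miR-690 was at least 4.04-fold and miR-689 at least 3.48-fold higher.

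The rodent cluster of miR-297, miR-466, miR-467 and miR-669 lies in an intron of Sfmbt2, an imprinted gene with a role in placenta. Of its 25 miRNAs on the array, 13 were members, and all 13 were read in 4TO7 alone. The files place 12 of them on chromosome 2 between 10389446 and 10430967, and miR-297a on chromosome 10. miR-669a was at the floor of -5.58 on all 3 67NR arrays and -1.82, -1.86 and -1.74 on the 4TO7 arrays, at least 8.09-fold higher. miR-466e-3p was -1.98, -1.93 and -1.99 and miR-467a* -2.07, -2.12 and -2.09 on the 4TO7 arrays, at least 7.24-fold and 6.64-fold above 67NR. miR-467b and miR-297a were at least 3.46-fold and 3.23-fold higher. The bounds of miR-297c and miR-297b-3p were 1.02-fold and 1.02-fold. These 2 were close to the limit of reading, and with the normexp correction their differences were -0.044 and -0.14. Many hairpins of this cluster are near copies of each other, so their values are not independent.

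miR-155 and miR-146b, both linked to NF-kB, were read in 4TO7 alone. miR-146b was at the floor of -5.58 on all 3 67NR arrays and -3.79, -3.79 and -3.83 on the 4TO7 arrays, at least 2.03-fold higher. miR-155 was at -4.77, -4.93 and -4.97 on the 4TO7 arrays, not above the mean of the lowest levels read on the 67NR arrays, so no fold is given, and its difference was -0.061 with the normexp correction. miR-21* was at -4.35, -4.48 and -4.35, a bound of 1.35-fold, with -0.07 under the same correction.

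Among the 31 members read in 67NR alone, 28 had a bound of 2-fold or more. The bounds ran from 1.77-fold to 82.7-fold. The lowest levels read, on which bounds rest, were -5.08 to -4.64 on the 67NR arrays and -5.52 to -5.32 on the 4TO7 arrays. Counts of bounds for members read in 67NR alone and in 4TO7 alone therefore use unlike limits. miR-34a, a target of p53 that restrains the cell cycle, was 0.90, 1.06 and 0.96 on the 67NR arrays and at the floor of -5.58 on all 3 4TO7 arrays. It was at least 82.7-fold lower in 4TO7. The miRNAs of the Hox clusters, which are expressed along the body axis with their Hox neighbours, had 5 members, of which 4 were read in 67NR alone. miR-10a was 0.62, 0.73 and 0.64 on the 67NR arrays and at the floor of -5.58 on all 3 4TO7 arrays and miR-10b 0.27, 0.29 and 0.24 on the 67NR arrays and at the floor of -5.58 on all 3 4TO7 arrays. They were at least 66.9-fold and 50.7-fold lower, and miR-196a, at -0.28, -0.11 and -0.22 in 67NR, was at least 36.6-fold lower. miR-196b, which differs from miR-196a by A12C, was read in both lines, at -0.18, 0.011 and -0.057 on the 67NR arrays and -3.74, -3.78 and -3.76 on the 4TO7 arrays, a difference of -3.69 ± 0.050 (adjusted p = 2.9e-14).

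Other members of this group were miR-218, from introns of the Slit genes, at least 35.7-fold lower, and miR-342-3p, from an intron of Evl, at least 35.2-fold lower. miR-218 read -0.25, -0.22 and -0.25 and miR-342-3p -0.35, -0.17 and -0.27 in 67NR. miR-551b and miR-185 were at least 10.9-fold and 9.55-fold lower. miR-192 and miR-194, known from liver and gut and induced by p53, were lower by at least 6.6-fold and 2.39-fold. miR-590-5p had a bound of 20.2-fold, and for it, miR-197, miR-712 and miR-714 no position is used here. miR-132 was read in 67NR alone, at -4.06, -3.94 and -3.93, whereas miR-212 from the same transcript (0.20 ± 0.14, adjusted p = 0.22) was not called and was -0.41 with a slide term.

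The arrays read both strands of 23 hairpins among the members, with both strands read in both lines for 9. Of these 9, both strands were called lower for 5 and higher for 1 (miR-31), the strands were called in opposite directions for 1 (miR-7a), and for 2 a strand was not called. In the other 14 a strand was not read on every array of both lines, and they are described without a count. miR-338-3p was at least 3.1-fold lower, while miR-338-5p, near the limit of reading, was higher by 0.36 ± 0.054 and turned to -0.38 with the normexp correction. The levels of miR-7a were -0.79, -0.84 and -0.83 on the 67NR arrays and -0.72, -0.71 and -0.65 on the 4TO7 arrays, a rise of only 0.13 ± 0.052 (adjusted p = 0.042) that lost its call with a slide term (adjusted p = 0.308) and when 67NR replicate 2 (adjusted p = 0.0999), 67NR replicate 3 (0.0984) or any 1 of the 4TO7 replicates (0.0549 to 0.134) was left out. miR-7a* read -4.46, -4.40 and -4.48 on the 67NR arrays and -4.86, -5.08 and -4.98 on the 4TO7 arrays and fell by 0.52 ± 0.048. miR-362-5p was read in 67NR alone and miR-362-3p in 4TO7 alone, but both were near the limit of reading, with bounds of 1.9-fold and 1.07-fold. The difference of miR-362-3p was -0.088 with the normexp correction. Where both strands were read in both lines and moved together, the distance between their differences ran from 0.0269 for miR-18a and miR-18a* to 0.811 for miR-9 and miR-9*.

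**Figure D4:**
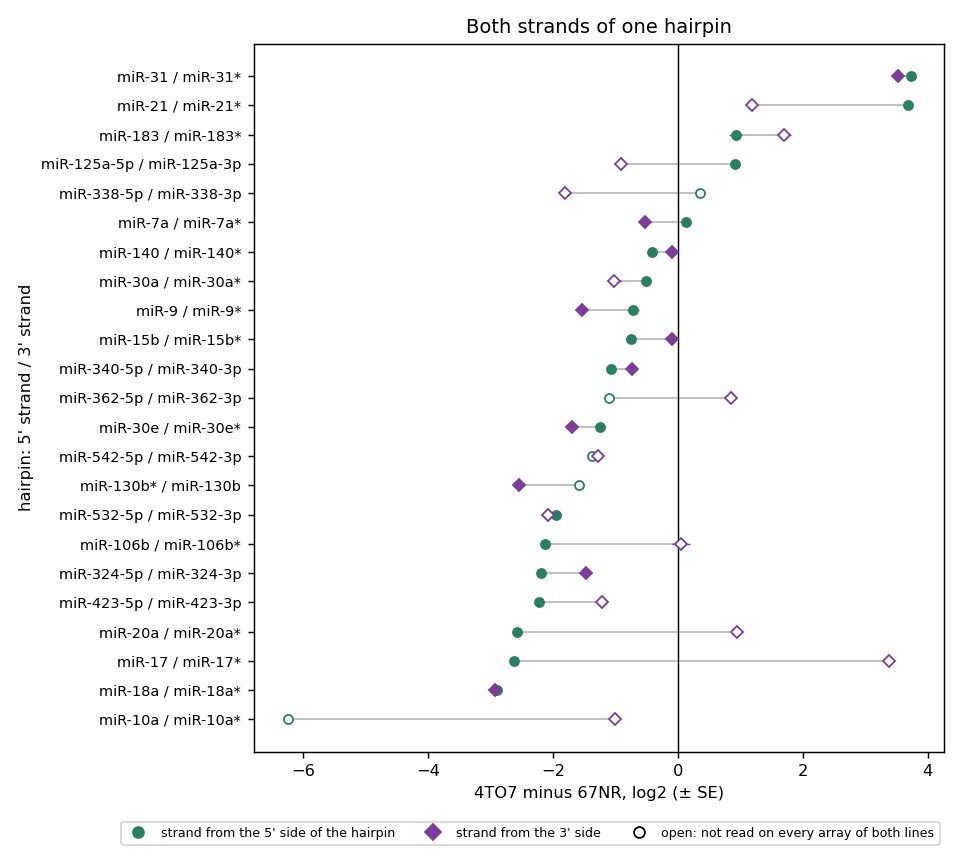
Difference 4TO7 minus 67NR in log2 (± SE) for the strand from the 5′ side (circles) and from the 3′ side (diamonds) of 23 hairpins, with open symbols for strands not read on every array of both lines. Among the 9 hairpins with both symbols filled, the strands of miR-7a lie on opposite sides of 0, at 0.13 and -0.52, and those of miR-9 lie farthest apart, by 0.811.

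The members lay in 35 groups of neighbours no more than 10 kb apart, strands of 1 hairpin included. In 22 of them at least 2 members were read in both lines. Those called were all higher in 6, all lower in 13 and of both directions in 3. The 3 were miR-23b and miR-27b with miR-24, miR-29b with miR-29c, and miR-7a with miR-7a*. However, miR-24 is made in both sister clusters, and a hairpin of miR-29b also lies beside miR-29a. The small differences of miR-29c and miR-7a also depended on processing. Whether neighbours from 1 transcript went apart can thus not be told from these groups. On the X chromosome 10 members were read in both lines, of which 9 were called lower and 1 (miR-322) was not called. Of the 94 such members elsewhere, 56 were called lower and 28 higher. The difference between these shares was not tested. Members read in 67NR alone and in 4TO7 alone lay side by side in the cluster of miR-500, miR-362 and miR-532 (6814821 to 6825598), where miR-532-5p was read in both lines and fell by 1.95 ± 0.075. miR-500 was read in 4TO7 alone, with a bound of 1.43-fold and -0.096 under the normexp correction.

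Differences near 0 were found for few members. miR-210, the miRNA induced by hypoxia, read -1.0, -0.86 and -1.09 on the 67NR arrays and -1.11, -1.02 and -0.97 on the 4TO7 arrays. The arrays overlapped, and the difference was -0.048 ± 0.079 (adjusted p = 0.65). miR-26b, a miRNA of the seed of miR-26a that represses Ezh2, read -1.55, -1.42 and -1.36 on the 67NR arrays and -1.45, -1.45 and -1.63 on the 4TO7 arrays and differed by -0.066 ± 0.057 (adjusted p = 0.32). miR-365 read -1.30, -1.2 and -1.19 on the 67NR arrays and -1.18, -1.07 and -1.24 on the 4TO7 arrays and differed by 0.068 ± 0.070. The call depended on scaling for these: on all probes the differences of miR-210 and miR-26b were 0.38 and 0.36, both called. miR-193b differed by -0.072 ± 0.12 on its brightest probe, while its second probe was read on all 4TO7 arrays and no 67NR array and differed by 2.79. miR-202-3p, miR-697 and miR-712 were not called and scattered widely within a line: miR-202-3p read 0.31, -1.37 and -1.54 on the 67NR arrays and -1.88, -1.82 and -0.13 on the 4TO7 arrays, miR-697 -2.25, -4.28 and -4.49 on the 67NR arrays and -4.38, -4.59 and -2.49 on the 4TO7 arrays. In both of these, replicate 1 of 67NR and replicate 3 of 4TO7 were the high arrays. For miR-712 the brightest probe differed by -0.22, while another, read on all 6 arrays, was higher in 4TO7 by 1.10. Leaving aside differences near 0, it was the 1 second probe of 79 read on all 6 arrays to go against the brightest. The second probe of miR-26b, at 0.063 beside -0.066 for its brightest, was left aside in this way.

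The levels in 168FARN and 4T1 are given here as values, with no test. let-7b was 1.87 ± 0.12 (mean ± SD) in 168FARN and 1.29 ± 0.083 in 4T1, beside 1.79 ± 0.091 in 4TO7 and -3.37 ± 0.12 in 67NR. miR-130a, at the floor in 67NR, was 1.47 ± 0.077 in 168FARN, 1.38 ± 0.024 in 4TO7 and 1.53 ± 0.0070 in 4T1. Of the 69 members read in both lines and at least 2-fold apart, the 168FARN level was nearer to 4TO7 than to 67NR for 67 and the 4T1 level for 66. All these distances use the same 67NR arrays, and the counts are a description. The following members, chosen after their values were seen, had other orders of levels. miR-34a was -0.92 ± 0.10 in 168FARN and -3.90 ± 0.034 in 4T1, between the 67NR level and the floor of 4TO7. miR-155 was -2.92 ± 0.098 in 168FARN and -2.19 ± 0.032 in 4T1, both above its 4TO7 level of -4.89 ± 0.10. miR-146b was at the floor in 168FARN and 4T1 as in 67NR, but it was read on 1 168FARN array and 2 4T1 arrays and on no 67NR array. A level at the floor thus does not mean unread in those 2 lines. miR-669a was -2.64 ± 0.035 in 4T1 and at the floor in 168FARN. miR-148a was at the floor in 168FARN and 4T1, below its 4TO7 level of -2.65 ± 0.043, though it was read on 2 4T1 arrays.

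**Figure D5:**
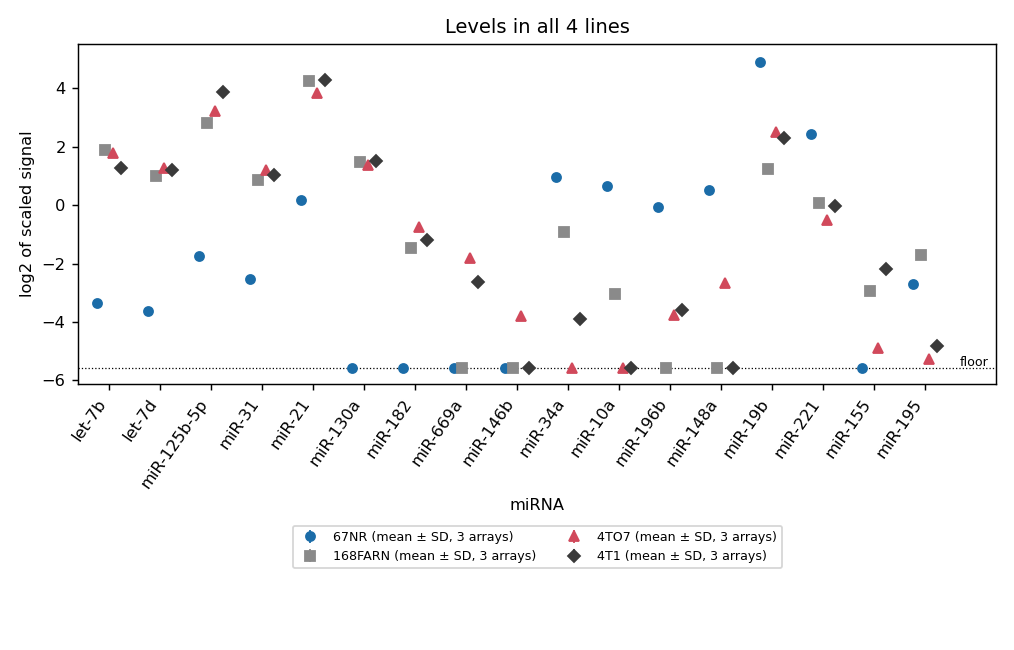
Mean log2 level ± SD over 3 arrays of 17 members in 67NR (circles), 168FARN (squares), 4TO7 (triangles) and 4T1 (diamonds), with the floor as a dotted line. For let-7b, miR-31, miR-21 and miR-130a the 3 other lines lie together above 67NR, while miR-34a, miR-148a and miR-155 are spread over the lines.

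Some further members read in both lines were chosen after their values were seen. miR-151-5p, from an intron of the focal adhesion kinase gene Ptk2, read -0.21, -0.10 and -0.20 on the 67NR arrays and -1.58, -1.65 and -1.53 on the 4TO7 arrays and fell by 1.42 ± 0.055. miR-324-5p and miR-324-3p, strands of 1 hairpin on chromosome 11, were lower, with differences of -2.18 ± 0.059 and -1.47 ± 0.11. miR-425 differed by -2.16 ± 0.059, miR-484 by -2.0 ± 0.10 and miR-186 by -2.60 ± 0.11. miR-9, a miRNA of neural progenitors, read -3.07, -2.99 and -2.89 on the 67NR arrays and -3.73, -3.45 and -3.93 on the 4TO7 arrays, a difference of -0.72 ± 0.10, and miR-9* fell by 1.53 ± 0.080. With this scaling the arrays of the lines did not overlap for either strand. Before scaling, the mean signal of miR-9 was 53.2 on the 67NR arrays and 48.5 on the 4TO7 arrays. The highest arrays were then at 56.4 and 56.2, so the lines overlapped. miR-149 rose, from -3.91, -3.58 and -3.51 in 67NR to -3.14, -3.22 and -3.29 in 4TO7 (0.46 ± 0.10, adjusted p = 0.0014). It lost its call with a slide term (0.36, adjusted p = 0.108), and its second probe, read on 1 67NR array, differed by -0.051. miR-720, since held to be a fragment of a transfer RNA, read 5.09, 5.25 and 5.56 on the 67NR arrays and 4.88, 4.98 and 4.70 on the 4TO7 arrays and fell by 0.45 ± 0.13 (adjusted p = 0.0088). The larger fall of miR-30a (-0.51) turned to 0.075 without scaling, and the value of miR-720 without scaling is not given here.

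Marker miRNAs of other cell types were looked up in both lines. The miR-200 family, which keeps cells epithelial by repressing Zeb1 and Zeb2, had no member among 9 miRNAs on the array, and its summed signal was 12.2 to 23 on the 67NR arrays and -21.8 to -6.88 on the 4TO7 arrays, where values below 0 come from background subtraction. In this family miR-141 and miR-200c were each read on 1 67NR array, with mean signals of 16 and 13.5. miR-203, miR-205 and miR-375, also of epithelia, were not read on any array of either line. The other epithelial markers looked up were read: miR-31, miR-96 and miR-183 in both lines and higher in 4TO7, and miR-182 in 4TO7 alone, as given above. The 8 haematopoietic miRNAs had no member (summed signal 8.60 to 13.8 in 67NR and 3.80 to 10.4 in 4TO7), and neither did the 8 of muscle. Of 11 mesenchymal miRNAs 3 were members: miR-140 and miR-140* in both lines and miR-218 in 67NR alone. miR-140 read -2.90, -2.83 and -2.90 on the 67NR arrays and -3.34, -3.29 and -3.27 on the 4TO7 arrays and fell by 0.42 ± 0.042, but it was 0.0055 with scaling on all probes and 0.17 by quantiles. The endothelial miR-126-3p was read in both lines and lower in 4TO7, as given above, and miR-126-5p in neither. The 30 miRNAs of the X-linked cluster near Fmr1, known from testis, had no member, and of 69 of the imprinted Dlk1-Dio3 cluster 3 were members. miR-494 differed by -0.79 ± 0.054 and miR-487b by -0.77 ± 0.13, and miR-431* was read in 67NR alone. With a slide term the difference of miR-487b was -1.22, and its second probe, read on 2 4TO7 arrays and no 67NR array, gave 0.33. The part of other cell types in the differences was not tested.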

How the data were processed

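Agilent mouse miRNA arrays (12, 3 per line) were scanned and quantified in Feature Extraction (version 10.2.1.3). As the file headers record, the authors deposited each spot's intensity after background subtraction (processed signal), with no scaling between arrays. The deposited value table equals them (largest difference 0).

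Control spots and spots marked uneven or as outliers were left out (291 to 508 per array of 67NR and 4TO7), and the spots of a probe were averaged. A probe counted as read if more than 0.5 of its spots were well above background. Signals were scaled to each array's 75th percentile, taken over the 170 probes read on all 12 arrays, floored at 0.0209 (log2 -5.58) and put on the log2 scale. The brightest probe stood for a miRNA. limma 3.58.1 in R 4.3.3 (with statmod 1.5.0 and, for tables, data.table at version 1.17.8) was used to estimate 4 line means from 12 arrays (8 residual degrees of freedom). The median SE of a difference was 0.0528, and the number of arrays limits precision. A bound is the mean level in the line that was read over the mean, in the other, of each array's lowest read level or the miRNA's own where higher.

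Members are all miRNAs read on all 3 arrays of either line. Named were the 15 largest differences each way among those read in both lines, the 10 largest bounds each way, members of the lists, the 5 smallest differences, and miRNAs sharing a seed or cluster with these. A few others were added after their values were seen. Members and lists were chosen with earlier results of these data known. Mature sequences were matched by name (28), by the order of both strands of a hairpin (61), or by the spacing to neighbouring miRNAs (36). Replicate numbers did not pair the arrays (correlations of same-numbered deviations -0.723, 0.307 and -0.762). Between arrays of unlike number these correlations ran from -0.615 to 0.811, the highest for 67NR replicate 1 with 4TO7 replicate 3. What such arrays share was not modelled. On simulated arrays 18, 20 and 20 of 20 miRNAs changed by 1.2, 1.5 and 2-fold were recovered, with 2 false calls among the miRNAs left unchanged. Apart from these changes the simulated lines had the same mean for each miRNA, and no floor was set, unlike in the data. Alternatives covered scaling, background, floor, filter, probe summary, slide, replicate block, arrays left out and variance prior.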

Additional observations from a re-analysis of the deposited data

Results flagged for a closer look

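A control target named hur_5, which is no part of the comparison, gave a mean signal of 194 on the 67NR arrays (lowest array 180) and of 2.03 on the 4TO7 arrays, with at most 6.36 on any of the 9 arrays of the other lines. What this target detects is not given in the sources used here. Another control target, hur_1, was at 204000 on the 67NR arrays and 47000 on the 4TO7 arrays. Their part in the differences between the lines was not tested.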

How the results depend on the processing

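The counts of members called, of members at least 2-fold apart and of members whose arrays do not overlap stayed within 1.5 times their values under every alternative run. Among the 104 members read in both lines the calls upward ranged from 25 (normexp background or a minimum difference of 1.5-fold) to 38 (no scaling) and downward from 48 (no scaling) to 70 (normexp or total gene signal). Leaving out 1 array gave 27 to 28 upward and 65 to 67 downward. Of the 93 calls among these members 76 kept direction and call without scaling, 83 with scaling on all probes or by quantiles, and 91 with a slide term. With the replicate number as a block, 27 were called upward and 65 downward, and the same direction and call were kept by 92 of 93, so that the pairing ended 1 call (miR-7a, adjusted p = 0.0565).

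The median of all tested moved from -0.12 to 0 with scaling on all probes, without scaling and with quantiles, to -0.48 with normexp, to -0.65 with total gene signal and to -0.31 with a slide term. Over the members read in both lines, the median moved from -0.754 to -0.325 with scaling on all probes, -0.171 without scaling and -0.336 with quantiles. Among the members named by the rule, differences near 0 turned too. In the order all probes, no scaling and quantiles, miR-210 became 0.381, 0.534 and 0.358, miR-26b 0.363, 0.517 and 0.528, miR-193b 0.357, 0.510 and 0.507, miR-15b* 0.334, 0.488 and 0.442, miR-140 0.00546, 0.159 and 0.174, and miR-140* 0.334, 0.488 and 0.425. miR-29c became 0.248 on all probes and 0.402 without scaling. Without scaling miR-26a was 0.00319, miR-30a 0.0746 and miR-7a* 0.0582. miR-193b was also 1.36 with the mean of all probes and 0.317 with total gene signal, where miR-7a was -0.111. With a slide term miR-212 was -0.406. With normexp, members close to background turned: miR-106b* (-0.341), miR-152 (-0.0679), miR-155 (-0.0605), miR-20a* (-0.0432), miR-21* (-0.0699), miR-297b-3p (-0.144), miR-297c (-0.0436), miR-338-5p (-0.382), miR-362-3p (-0.0878), miR-449a (-0.146) and miR-500 (-0.0961). The cause was not tested. Slide and line could be told apart only through 168FARN. Signals near background limit the members read in 1 line, whose folds are bounds.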
